A study of Mus musculus with 9 samples.

Results

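Resting RAW 264.7 cells are described here from the 3 vehicle-treated libraries among the 9 libraries of an RNA-seq study of calycosin, a plant isoflavone, and lipopolysaccharide (LPS), an outer membrane component of Gram-negative bacteria and the ligand of Toll-like receptor 4. RAW 264.7 is an established mouse macrophage line, derived from a tumour that formed after infection with Abelson murine leukaemia virus. The 3 libraries were chosen by their label alone: cells in DMEM with fetal bovine serum that received the solvent and neither LPS nor calycosin. The labels give no name for the solvent and no length of exposure to it, and they call the samples biological replicates without saying whether these were separate cultures or passages. The line is a transformed population that divides in culture, so its levels are those of one cell line and not of macrophages in a tissue. The remaining 6 libraries enter no value below.

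Levels are given as TPM, the authors' estimate of a gene's share of all transcripts in a library. TPM divides by transcript length, so levels of different genes can be set side by side. Where 3 values follow a gene they are TPM in replicates 1, 2 and 3, in that order, and a mean carries its SD over these 3 libraries. Genes are placed in classes by their mean: trace is under 1 TPM, low is 1 to under 10, moderate is 10 to under 100, high is 100 to under 1000 and very high is 1000 or more. A gene without counts had 0 counts in each of the 3 libraries, and a gene is called detected when it reached 1 TPM in each of them. One group of libraries allows no test between conditions, so the values below are a description and no p-value is given.

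Macrophages detect microbes through receptors at the surface, in endosomes and in the cytosol, engulf particles through Fc, complement, lectin and scavenger receptors, and break the cargo down in lysosomes. Their identity rests on the transcription factor PU.1, encoded by Spi1, and their survival on the CSF1 receptor. Many inflammatory genes of these cells are kept at low levels until a signal such as LPS arrives.

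The libraries held 31285425 to 35138718 counts over annotated genes, and replicate 3 stood apart from the other two. Genes of the mitochondrial chromosome took 3.79% of counts in replicate 1 (95% Wilson interval 3.78% to 3.79%), 3.68% in replicate 2 (3.67% to 3.69%) and 21.9% in replicate 3 (21.9% to 22.0%). As a share of TPM these genes took 7.39%, 7.17% and 38.1%. The median detected nuclear gene in replicate 3 was at 0.572 of its mean in replicates 1 and 2, a log2 difference of -0.81, against -0.00 between replicates 1 and 2. That shift was not even: with detected genes cut into 5 equal bins, it went from -0.46 in the bin of lowest GC content to -1.11 in the highest, and from -1.09 in the bin of shortest transcripts to -0.58 in the longest. The log2 levels of replicates 1 and 2 had a Pearson correlation of 0.992 across genes, and those of replicates 1 and 3 one of 0.946, where genes are not independent replicates. A value in replicate 3 near 0.57 of the other two is therefore the usual pattern. Replicate 3 was above both other libraries for 710 of these 10271 genes, 6.91%. Whether the mitochondrial share, GC content, length or the cultures themselves set this difference was not tested.

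**Figure D1:**
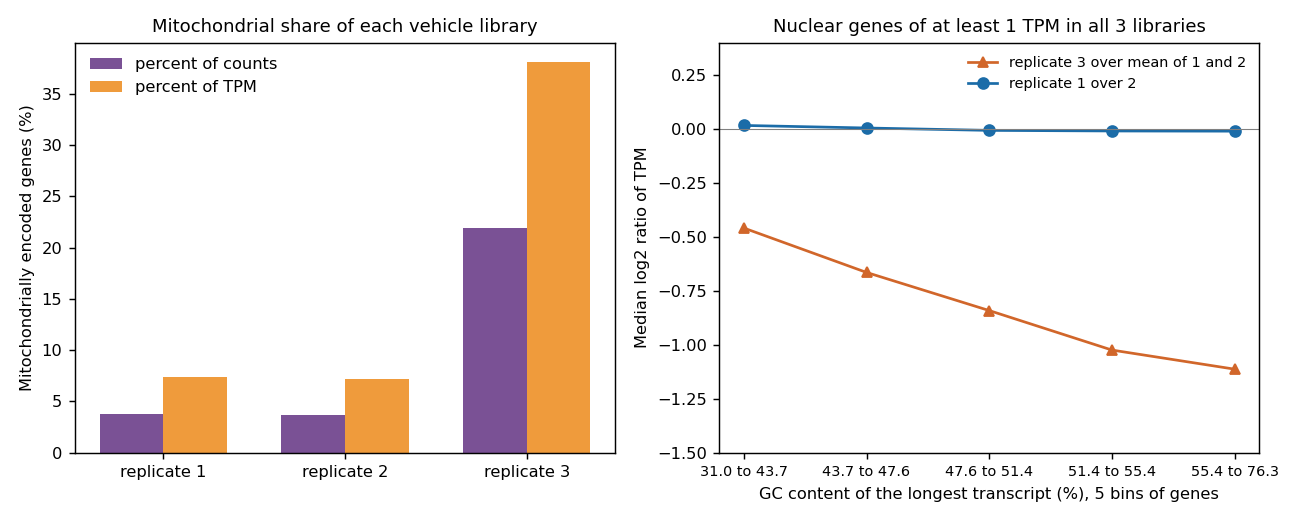
Left, share of mitochondrially encoded genes in each vehicle library as percent of counts and of TPM. Right, median log2 ratio of TPM for 10271 nuclear protein-coding genes in 5 bins of transcript GC content. Replicate 3 holds 21.9% mitochondrial counts against 3.79% and 3.68%, and its ratio goes from -0.46 to -1.11 with rising GC content while the ratio of replicate 1 over 2 stays near 0.

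Of 21767 protein-coding genes, 10284 (47.2%) were detected at rest, and 7775 (35.7%) had no counts. Counts per gene list below are to be read beside these shares. Without replicate 3, 10634 were detected. A further 3329 were at trace level. By mean, 2535 genes were low, 6804 moderate, 1230 high and 94 very high, and the median detected gene stood at 26.2 TPM. A gene without counts may lie below the floor of 3 counts, equal to 0.0854 to 0.0959 CPM (counts scaled to library size) here, and this covers counting error only.

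The nuclear transcriptome was led by iron storage, a matrix protein, translation, lysosomal and glycolytic genes. The heavy chain of ferritin, Fth1, stood at 20533, 19757 and 15629 TPM, a mean of 18639.6 ± 2636 TPM (SD, n = 3). Osteopontin, the secreted phosphoprotein encoded by Spp1, was at 18053, 16889 and 12175 TPM. The order of these genes depended on the transcript length used: with TPM recomputed from counts and the longest transcript, Fth1 had a mean of 9186.5 TPM and Spp1 one of 17823.5 TPM. The translation elongation factor Eef1a1 was at 8029.5, 8046 and 3954 TPM and the lysosomal aspartic protease cathepsin D, Ctsd, at 6684, 6929 and 2044 TPM. The ferritin light chain Ftl1 reached 6419, 7211 and 1994 TPM, and Lyz2, the macrophage lysozyme, 5411, 5850.3 and 2619 TPM. Pyruvate kinase Pkm, Gpnmb (a melanosomal and lysosomal glycoprotein), B2m, the ribosomal genes Rplp1, Rpl19, Rps15 and Rpl32, the cytokine Mif and the elongation factor Eef2 completed the 15 highest genes. These 15 genes took 11.3%, 11.2% and 11.6% of the TPM of nuclear protein-coding genes. Fth1 was above Ftl1 by 3.20-, 2.74- and 7.84-fold, so the order of the ferritin chains held in each library but its size did not. Gpnmb and B2m were exceptions to the pattern of replicate 3, with Gpnmb at 3199, 3325 and 4375 TPM and B2m at 3022, 2974 and 3223 TPM.

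**Figure D2:**
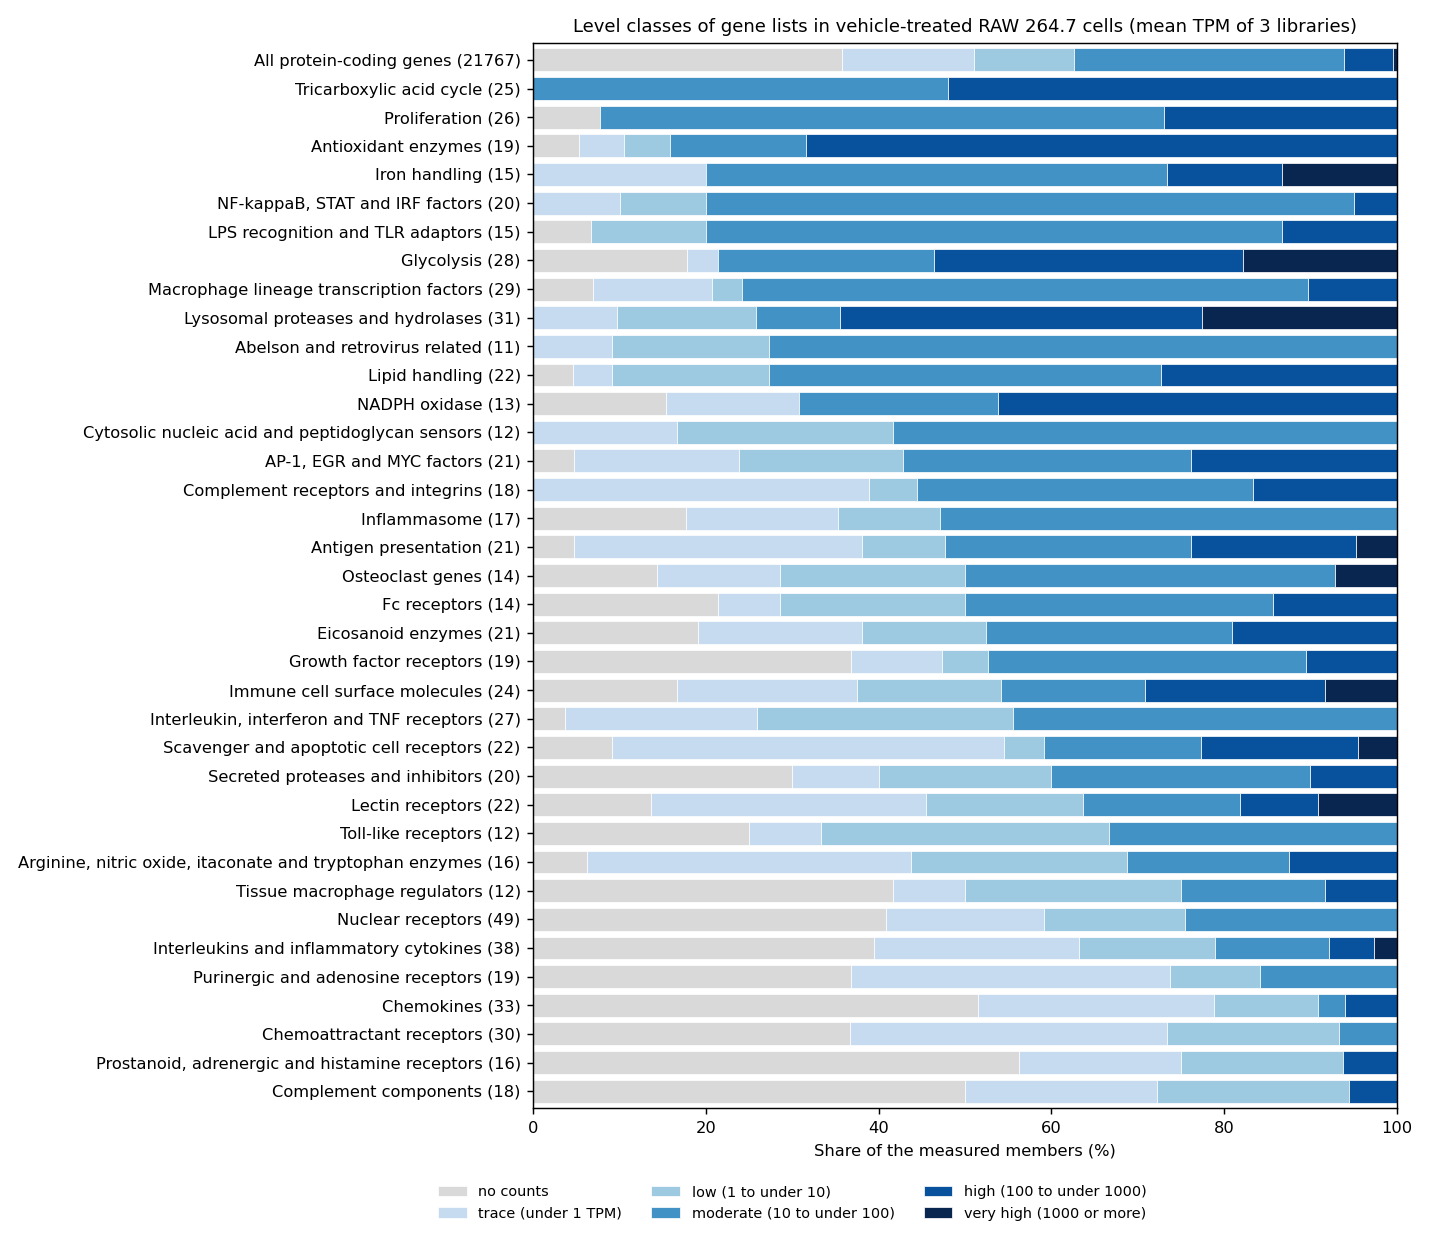
Share of the measured members of each gene list, with the number of members in brackets, in 6 level classes by mean TPM over the 3 vehicle libraries. The top bar holds all 21767 protein-coding genes, of which 35.7% had no counts; all 25 members of the tricarboxylic acid cycle list were at 10 TPM or more, while 17 of 33 chemokines had no counts.

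The label of the cells was checked against markers of macrophages and of other lineages. Of 15 macrophage markers, 14 were detected, 9 of them at 100 TPM or more. Cd68, a lysosomal glycoprotein of phagocytes, was at 1760.2, 1824 and 2409.7 TPM, Laptm5 at 1622, 1634 and 934 TPM, and the signalling adaptors Fcer1g and Tyrobp at 1154, 1165 and 574 TPM and 1162, 1239 and 399.7 TPM. Csf1r was at 314, 307 and 127 TPM and Spi1 at 204, 209.6 and 125 TPM. The F4/80 antigen, encoded by Adgre1, was low at 6.89, 7.497 and 2.13 TPM. Mertk, a receptor for apoptotic cells, had no counts in replicates 1 and 2 and reached 0.0199 TPM in replicate 3. Itgam, encoding CD11b, stood at 73.8, 82.2 and 54.98 TPM, but 2 gene identifiers in the count table carry that symbol and share exons, so its level is uncertain.

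Markers of other lineages were nearly all absent, although in bulk RNA a few cells of a type and little RNA per cell cannot be told apart. Of 71 such markers, 41 had no counts, 27 were at trace level and 3 were detected. The summed TPM of the 8 B cell markers was 0.0647, 0.313 and 0.192, that of the 7 NK cell markers 0.249, 0.0993 and 0.0516, and that of the 9 epithelial and hepatocyte markers 0.0244, 0 and 0. The 3 detected markers were the T cell kinase Lck at 23.1, 19.7 and 12.4 TPM, the costimulatory receptor Cd28 at 14.9, 13.5 and 10.9 TPM and von Willebrand factor, Vwf, at 21.5, 22.1 and 9.25 TPM. They stood alone in their lists: Cd3d, Cd3e, Cd3g, Cd8a and Trac had no counts, and beside Vwf the endothelial genes Cdh5, Pecam1, Kdr and Tek were at trace level. Markers of tissue macrophages were also missing. None of 15 was detected in all 3 libraries, and 7 had no counts, among them the Kupffer cell genes Clec4f and Timd4, the microglial genes P2ry12 and Sall1 and the peritoneal regulator Gata6. Tmem119, a microglial membrane protein, came closest at 2.91, 3.75 and 0.934 TPM.

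Sequences upstream of start sites are shown for genes at the extremes of level, since level classes differed in what these windows hold. RefSeq entries for GRCm38.p6 matched 16475 of 21754 nuclear protein-coding genes, and the window was the 250 bases upstream of the start site. The median number of CpG dinucleotides was 3 in genes without counts, 6 at trace level, 13 at low, 17 at moderate, 17 at high and 14 at very high level, against 11 over all windows. The TATA motif TATAAA, searched on both strands, was in 21.3% of windows of genes without counts, 11.7% at trace, 6.94% at low, 5.00% at moderate, 7.55% at high and 12.9% at very high level, and in 11.9% of all. Very high genes thus had fewer CpG and more TATA matches than moderate genes, though far more CpG than genes without counts. The letters CCGGAAGT, an ETS family motif, were in 0.692% of windows without counts and 7.86% at moderate level (4.09% of all), and GAGGAAGT, a motif of PU.1, in 1.53% and 2.69% (2.28% of all). A match is a description of letters and not a bound site.

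**Figure D3:**
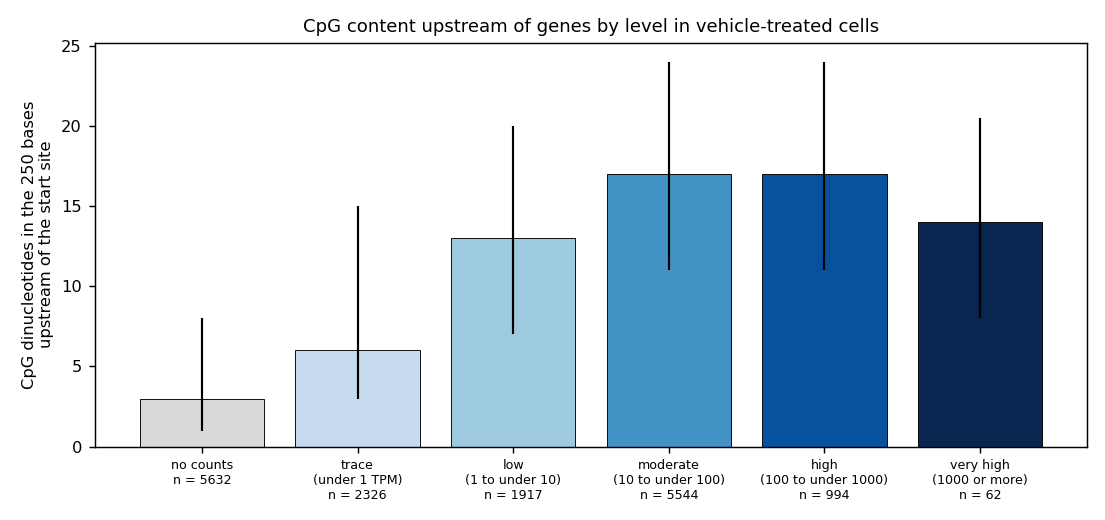
Median number of CpG dinucleotides (bars) with the lower and upper quartile (lines) in the 250 bases upstream of RefSeq start sites, by level class in the vehicle libraries. The median is 3 for genes without counts and 17 for genes at moderate and high level, and it is 14 for the 62 windows of very high genes.

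The following stretches are written 5′ to 3′ on the gene's strand, from RefSeq on GRCm38.p6, with CpG dinucleotides in capitals. Bases that the GENCODE gene model places inside the gene are left off, so Lyz2 and Mycn are shorter than 250 bases.
Spp1, very high, chr5:104434861-104435110 on the plus strand: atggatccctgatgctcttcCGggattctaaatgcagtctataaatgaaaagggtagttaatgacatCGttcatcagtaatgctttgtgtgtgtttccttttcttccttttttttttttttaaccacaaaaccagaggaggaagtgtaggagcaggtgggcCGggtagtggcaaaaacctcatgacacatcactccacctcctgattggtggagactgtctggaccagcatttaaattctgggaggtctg
Lyz2, very high, chr10:117282322-117282522 on the minus strand: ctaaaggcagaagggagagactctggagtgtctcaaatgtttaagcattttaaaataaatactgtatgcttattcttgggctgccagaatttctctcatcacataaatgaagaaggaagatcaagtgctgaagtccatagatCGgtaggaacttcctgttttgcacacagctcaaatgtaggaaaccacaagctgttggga
Lyz1, low, chr10:117292869-117293118 on the minus strand: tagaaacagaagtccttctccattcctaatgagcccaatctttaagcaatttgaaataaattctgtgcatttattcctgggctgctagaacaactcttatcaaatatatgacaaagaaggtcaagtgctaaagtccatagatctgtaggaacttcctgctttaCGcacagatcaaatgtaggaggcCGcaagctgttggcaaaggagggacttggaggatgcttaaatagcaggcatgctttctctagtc
Lamp1, very high, chr8:13158911-13159160 on the plus strand: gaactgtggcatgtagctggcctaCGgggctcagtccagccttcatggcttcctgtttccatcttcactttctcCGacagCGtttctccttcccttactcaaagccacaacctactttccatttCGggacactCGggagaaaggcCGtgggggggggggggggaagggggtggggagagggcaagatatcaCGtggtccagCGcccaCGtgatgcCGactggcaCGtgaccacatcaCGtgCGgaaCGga
Atf4, high, chr15:80254934-80255183 on the plus strand: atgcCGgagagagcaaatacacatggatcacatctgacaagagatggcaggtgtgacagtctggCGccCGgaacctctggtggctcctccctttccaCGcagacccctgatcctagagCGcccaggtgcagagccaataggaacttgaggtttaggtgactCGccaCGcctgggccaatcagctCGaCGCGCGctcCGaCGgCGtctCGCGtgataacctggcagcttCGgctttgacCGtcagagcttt
Mycn, high, chr12:12941915-12942086 on the minus strand: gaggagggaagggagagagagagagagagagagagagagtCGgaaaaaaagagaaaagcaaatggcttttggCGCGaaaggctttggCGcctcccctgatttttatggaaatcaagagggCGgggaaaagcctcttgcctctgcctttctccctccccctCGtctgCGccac
Pycard, trace, chr7:127993868-127994117 on the minus strand: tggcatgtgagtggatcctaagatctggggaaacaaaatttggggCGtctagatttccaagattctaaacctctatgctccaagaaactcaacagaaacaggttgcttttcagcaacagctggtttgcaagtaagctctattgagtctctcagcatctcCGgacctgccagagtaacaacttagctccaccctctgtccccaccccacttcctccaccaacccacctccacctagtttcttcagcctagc
Il1b, no counts, chr2:129371140-129371389 on the minus strand: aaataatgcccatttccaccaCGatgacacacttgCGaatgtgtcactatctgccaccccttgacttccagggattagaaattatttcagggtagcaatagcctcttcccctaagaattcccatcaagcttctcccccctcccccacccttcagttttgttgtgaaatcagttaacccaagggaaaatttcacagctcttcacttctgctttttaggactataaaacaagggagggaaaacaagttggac
Spp1 and Pycard both hold GAGGAAGT on one of the strands, at opposite ends of the level scale. Il1b has TATAAA starting 31 bases upstream of its start site. Lamp1 holds 4 copies of CACGTG, the E-box that MiT/TFE factors such as TFEB can bind, and 14 CpG, while Atf4 holds 18 CpG and no match to any of the 4 motifs.

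The lysozyme genes lie side by side on chromosome 10, and their windows were 78.8% identical in a global alignment. Lyz2 (chr10:117277331-117282321) had 131468, 138726 and 71952 counts. Lyz1 (chr10:117287797-117292868) had 124, 124 and 71 counts, with levels of 5.28, 5.43 and 2.69 TPM. Lyz2 was above Lyz1 by 1025-, 1078- and 975-fold, the steadiest ratio of the 18 gene pairs compared. Reads shared between these near-identical copies could be placed on either, so the level of Lyz1 is uncertain.

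Receptors for microbes were led by RNA and lipoprotein sensors, and of the genes of LPS recognition Cd14 was far above Tlr4. Of 12 Toll-like receptors, 4 were moderate, 4 low, 1 at trace level and 3, Tlr5, Tlr11 and Tlr12, without counts. Tlr7, the endosomal sensor of single-stranded RNA, was at 62.6, 56.7 and 67.6 TPM, and Tlr2, the sensor of bacterial lipoproteins, at 70.6, 71.6 and 39.97 TPM. Their order changed with the library, since Tlr7 was the higher gene in replicate 3 only. Tlr13, a sensor of bacterial ribosomal RNA, stood at 35.9, 35.5 and 24.3 TPM. Tlr6, a partner of Tlr2, was at 9.51, 9.26 and 8.74 TPM, the double-stranded RNA sensor Tlr3 at 4.46, 4.19 and 4.36 TPM and the CpG DNA sensor Tlr9 at 3.81, 4.24 and 4.83 TPM. Tlr1, the other partner of Tlr2, was at 1.35, 1.17 and 0.608 TPM, so that Tlr2 exceeded it by 52.4-, 61.3- and 65.8-fold.

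Tlr4 itself (chr4:66827584-66930284) had 493, 423 and 2057 counts and stood at 7.29, 8.33 and 25.7 TPM. Replicate 3 was 3.29-fold above the mean of the other two, the largest excess among the detected list genes. Ly96, the MD-2 protein that holds LPS on the receptor, was at 13.8, 9.88 and 24.9 TPM and followed the same pattern. Cd14, which hands LPS to the complex, was at 943, 951 and 435 TPM. The LPS-binding serum protein Lbp had no counts. Cd180, a TLR4-like receptor, was at 58.8, 59.2 and 66.3 TPM, with its partner Ly86 at 8.41, 12.6 and 7.02 TPM.

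Each of the measured adaptors and kinases below the receptors was detected. Unc93b1, which carries nucleic acid sensors to endosomes, was at 345, 350.0 and 149 TPM, Myd88 at 89.5, 86.8 and 48.7 TPM, Irak1 at 66.9, 71.2 and 54.8 TPM and the TRIF adaptor Ticam1 at 18.3, 20.3 and 19.2 TPM. Ticam2 stood at 40.7, 39.1 and 20.2 TPM and shares exons with Tmed7 on the same strand. The inhibitory kinase Irak3 was at 7.87, 8.45 and 12.8 TPM, higher in replicate 3 as Tlr4 and Ly96 were.

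**Figure D4:**
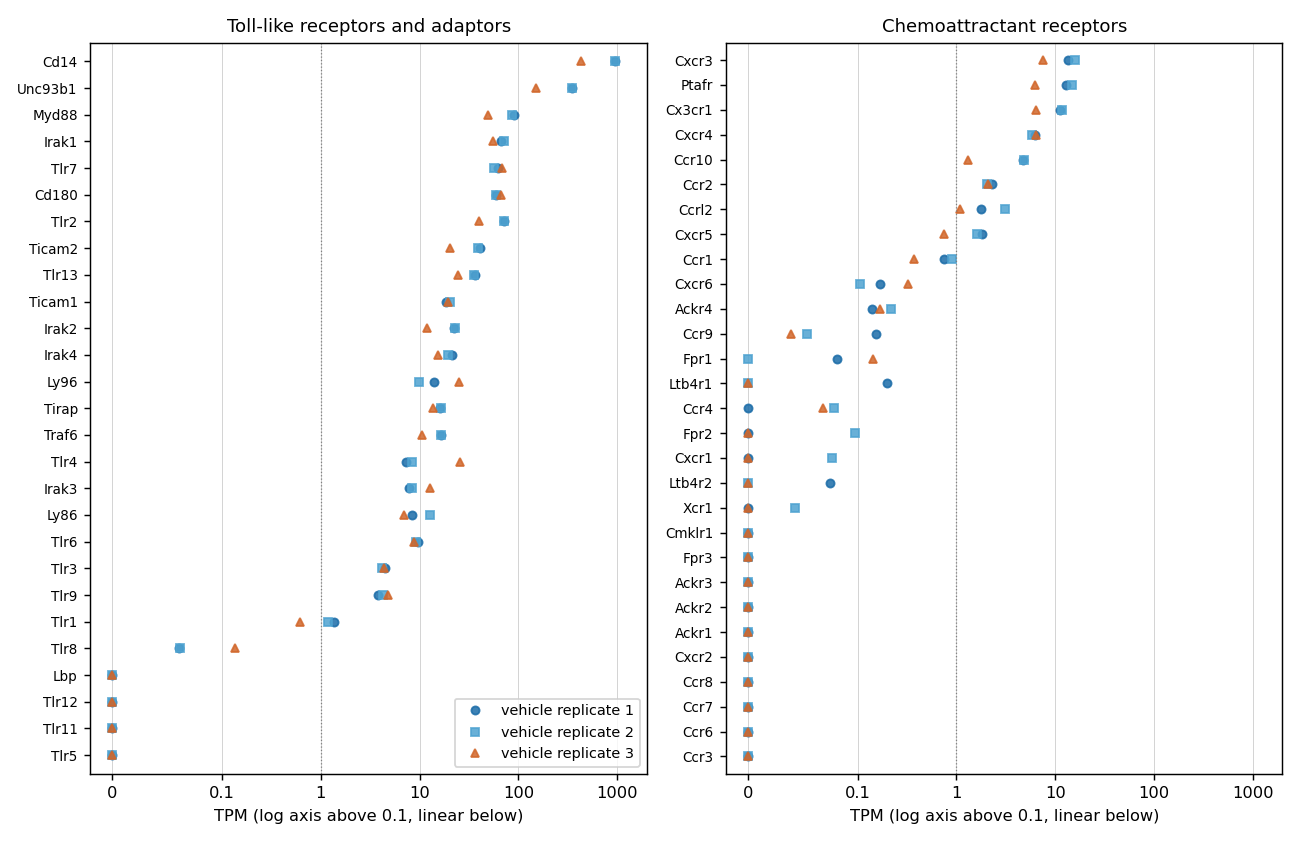
TPM in each vehicle library for Toll-like receptors with their co-receptors and adaptors (left) and for chemoattractant receptors (right), on an axis that is logarithmic above 0.1 and linear below. The dotted line marks 1 TPM. Cd14 lies at 943, 951 and 435 TPM, Tlr4 is higher in replicate 3 than in the others, and 10 of the 29 chemoattractant receptors plotted lie at 0.

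Cytosolic sensors and their signalling partners were mostly moderate or low. Of 12 genes for sensing nucleic acids and peptidoglycan, 7 were moderate, 3 low and 2, Zbp1 and Nod1, at trace level. The 7 moderate genes include the adaptors Mavs and Tmem173 and the kinase Ripk2, which are not counted as sensors here. The antiviral adaptors Mavs and STING (Tmem173) were at 39.99, 40.8 and 23.3 TPM and 33.1, 32.2 and 19.3 TPM. RIG-I (Ddx58), which binds viral RNA, was at 30.02, 30.2 and 20.4 TPM, and the DNA sensor Cgas at 15.7, 13.2 and 10.8 TPM. Nod2, the muramyl dipeptide sensor, was low at 4.44, 4.897 and 3.598 TPM and Nod1 was at 0.633, 0.6997 and 0.1995 TPM.

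The inflammasome, the complex in which ASC joins a sensor to caspase-1, had several sensors and proteases but almost no adaptor. RAW 264.7 cells are known as a line that lacks ASC. Pycard, the gene for ASC (chr7:127989708-127993867), had 4, 2 and 2 counts, or 0.0504, 0.0291 and 0.0251 TPM. Casp1 stood at 55.04, 53.6 and 44.4 TPM, above Pycard by 1092-, 1840- and 1766-fold. The sensors Aim2 and Nlrp3 were at 44.4, 40.7 and 46.4 TPM and 16.4, 20.2 and 13.2 TPM, caspase-11 (Casp4) was at 25.2, 22.9 and 22.3 TPM, and Gsdmd, the pore-forming substrate, at 115, 114 and 36.6 TPM. Of the cytokines that caspase-1 cleaves, Il18 was at 12.8, 13.6 and 12.02 TPM and Il1b had no counts. Nlrp1a and Mefv also had none, and Nlrc4, the partner of the Naip sensors, was at trace level with 1.05, 1.199 and 0.599 TPM. The Naip genes, near-identical copies whose reads may be shared, ranged from Naip2 at 21.8, 21.8 and 15.7 TPM to Naip1 at 0.42005, 0.514 and 0.0791 TPM.

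Phagocytic receptors were uneven, from very high levels to none. Among 22 scavenger and apoptotic cell receptors and their partners, 9 were at 10 TPM or more and 12 were under 1 TPM. Gas6, a bridging ligand for apoptotic cells, was at 346, 338 and 136 TPM, while its receptors Axl and Tyro3 were at trace level with Mertk. Lrp1, an endocytic receptor, was at 259.6, 263 and 141 TPM and Trem2, a lipid receptor that signals through Tyrobp, at 181, 191 and 69.2 TPM. The scavenger receptor Msr1 was at 15.9, 18.04 and 14.1 TPM. Cd36 was at 0, 0.0651 and 0.114 TPM, Cd163 was at 0, 0.0249 and 0 TPM, and Marco and Timd4 had no counts.

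Fc receptor genes were detected in 10 of 14 cases (71.4%), against 47.2% of all protein-coding genes. The IgG receptors Fcgr3, Fcgr2b and Fcgr1 were at 102, 104 and 102 TPM, 109, 102 and 64.5 TPM and 60.4, 63.2 and 21.3 TPM, and Fcgr4 was low at 8.44, 9.63 and 3.397 TPM. The kinases downstream were present too, with Lyn at 79.99, 78.4 and 55.05 TPM and Syk at 82.7, 82.01 and 40.5 TPM. Fcer1a, Fcrls and Fcamr had no counts.

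Lectins spanned the whole range. The galectins Lgals1 and Lgals3 were at 2196, 2222 and 895 TPM and 1985, 2298 and 985 TPM, and only in replicate 1 was Lgals1 the higher. Mincle (Clec4e) and MCL (Clec4d), which bind mycobacterial glycolipid, were at 101, 105 and 58.3 TPM and 224, 209.8 and 165 TPM. Clec5a was at 160.1, 171 and 125 TPM and Cd33 at 75.6, 90.6 and 88.7 TPM. Dectin-1 (Clec7a), the receptor for fungal beta-glucan, was near 1 TPM at 0.825, 1.03 and 0.752 TPM, and the mannose receptor Mrc1 was at 0.114, 0.0617 and 0.0711 TPM. Clec4f, Cd209b and Mrc2 had no counts.

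Integrins gave the cells an adhesive repertoire without CD11c. Itga4 was at 309, 289 and 355 TPM and Itgb2, the common beta chain of leukocyte integrins, at 222, 233 and 120.5 TPM. The fibronectin receptor chains Itgb1 and Itga5 were at 124, 123 and 85.2 TPM and 44.1, 46.3 and 17.5 TPM. Itgax, encoding CD11c, was at 0.678, 0.832 and 0.249 TPM and Itgb3 at 0.176, 0.104 and 0.0645 TPM. The C3a receptor C3ar1 was at 19.4, 18.1 and 16.6 TPM, whereas the C5a receptor C5ar1 was at 0.476, 0.441 and 0.296 TPM. Of 18 complement components, properdin (Cfp) alone had a mean above 10 TPM, at 231, 254 and 73.8 TPM. C3 was at 6.39, 7.79 and 3.87 TPM. C1qa and C1qc had no counts, with C1qb at 0, 0.101 and 0 TPM, and 7 other components had none.

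Of 19 growth factor receptors, 10 (52.6%) were detected and 7 had no counts, against 47.2% and 35.7% of all protein-coding genes. The GM-CSF receptor chain Csf2ra was at 208, 217 and 215 TPM, the same in replicate 3 as in the others, so that Csf1r was above it by 1.51- and 1.41-fold in replicates 1 and 2 and below it in replicate 3, at 0.591. The shared beta chains Csf2rb and Csf2rb2, paralogs that may share reads, were at 51.8, 52.6 and 32.7 TPM and 36.5, 38.3 and 27.5 TPM. Tgfbr2, a TGF-beta receptor, was at 109, 108 and 64.04 TPM, and RANK (Tnfrsf11a), the receptor that drives osteoclast formation, at 19.8, 20.1 and 11.6 TPM. Insr was at 11.5, 12.9 and 7.72 TPM while Igf1r had no counts. Kit, Flt3, Il3ra, Pdgfra, Egfr and Met had none either.

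Cytokine receptors were mostly moderate or low, with 12 of 27 moderate and 8 low. The common gamma chain Il2rg led at 103, 96.5 and 79.9 TPM, followed by the TNF receptor Tnfrsf1a at 92.9, 91.6 and 59.5 TPM. Both chains of the type I and type II interferon receptors were detected: Ifnar1 and Ifnar2 were at 42.3, 38.7 and 27.2 TPM and 82.9, 85.9 and 55.5 TPM, and Ifngr1 and Ifngr2 at 27.6, 30.3 and 17.9 TPM and 53.1, 53.6 and 33.9 TPM. The interleukin 10 receptor was unequal, with Il10rb at 57.98, 58.5 and 36.6 TPM and Il10ra at 2.72, 2.603 and 1.098 TPM. Il1r1, the interleukin 1 receptor, was at 0.394, 0.298 and 0.451 TPM and the decoy Il1r2 had no counts. Il4ra was close to the detection level at 1.46, 2.06 and 0.431 TPM.

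Chemoattractant receptors reached 10 TPM on average in 2 of 30 cases, and 11 had no counts. The 7 detected were 23.3% of the list, against 47.2% of all protein-coding genes, of which 35.7% had no counts. Cxcr3, better known from T cells, was at 13.6, 15.9 and 7.603 TPM, and Ptafr, the receptor for platelet activating factor, at 12.8, 14.9 and 6.21 TPM. The fractalkine receptor Cx3cr1 stood at 11.3, 11.6 and 6.46 TPM and Cxcr4 at 6.21, 5.82 and 6.42 TPM. The monocyte receptor Ccr2 was low at 2.28, 2.04 and 2.07 TPM and Ccr1 was at 0.752, 0.894 and 0.3702 TPM. Ccr7 and Cxcr2 were among those without counts.

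Of other G protein-coupled and purinergic receptors, the prostacyclin receptor stood out. Ptgir was at 182, 182 and 84.6 TPM, a mean of 149 ± 56.2 TPM (SD, n = 3), while 9 of the 16 prostanoid, adrenergic and histamine receptors had no counts. The PGE2 receptor Ptger4 was at 2.83, 2.77 and 1.58 TPM. Ptger1 was at 8.52, 1.06 and 2.08 TPM, and it shares exons with a gene on the opposite strand. The ATP-gated channels P2rx4 and P2rx7 were at 42.3, 37.1 and 28.4 TPM and 19.6, 22.7 and 15.6 TPM, and the UDP receptor P2ry6 at 36.2, 39.1 and 28.3 TPM. P2ry12, P2ry13 and P2ry14 had no counts.

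Lineage transcription factors were present at moderate to high levels, with 23 of 29 detected. Cebpb, a bZIP factor of inflammatory genes, was at 233, 244 and 169 TPM. Spi1 had a mean of 179 ± 47.3 TPM (SD, n = 3). Ets2, an effector of CSF1 signalling, was at 232, 173 and 97.3 TPM. Zeb2 stood at 83.2, 106 and 100.1 TPM, Irf8 at 37.6, 36.1 and 17.4 TPM, Runx1 at 26.6, 14.2 and 31.5 TPM and Cebpa at 23.8, 25.03 and 11.7 TPM. Zeb2 has an antisense partner on the opposite strand, so its reads and those of Zeb2os cannot be told apart without strand. Maf, a factor that restrains self-renewal of macrophages, had no counts. Myb had no counts, Runx3 was at trace level, and the dendritic cell factors Zbtb46 and Batf3 were at 0.345, 0.464 and 0.246 TPM and 0.7703, 0.09903 and 0 TPM.

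Regulators of tissue macrophages were split. Lyl1 was at 168, 169 and 81.7 TPM, Mef2c at 31.3, 48.4 and 48.01 TPM and Mef2a at 15.03, 17.95 and 25.1 TPM. Gata6, Sall1, Sall3 and Pparg had no counts, and Spic, which directs red pulp macrophages, was at 0, 0.0628 and 0 TPM. Car4, a marker enzyme on the same list and not a regulator, had no counts either.

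Transcripts of the signal-dependent factors were nearly all detected at rest. Of 20 NF-kappaB, STAT and IRF genes, 18 (90%) were detected, against 47.2% of all protein-coding genes, and 2 were at trace level. Stat6, the factor of interleukin 4 signalling, was at 131, 137 and 73.3 TPM, Nfkb1 at 67.1, 87.9 and 56.7 TPM, Rela at 70.7, 69.6 and 63.04 TPM and Stat3 at 61.4, 56.9 and 32.2 TPM. Rel was lower at 6.96, 7.496 and 7.71 TPM. Irf3, the factor downstream of TRIF and STING, was at 32.1, 37.5 and 13.9 TPM, and Irf1 and Irf7 at 18.1, 14.9 and 7.85 TPM and 17.4, 14.2 and 8.47 TPM. Irf2 was at 18.9, 20.7 and 42.99 TPM, 2.17-fold higher in replicate 3 than in the mean of the others.

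Among the MYC family, Mycn was abundant and Myc was nearly absent. Mycn (chr12:12936093-12941914), the neural paralog of Myc, had 26173, 15448 and 12977 counts and stood at 538, 326 and 239 TPM. Myc (chr15:61985391-61990374) had 8, 3 and 17 counts, or 0.185, 0.163 and 0.3296 TPM. Mycn was above Myc by 2909-, 2005- and 724-fold, and Max, the partner of both, was at 109, 108 and 78.7 TPM. Atf4, the factor of the amino acid response, led its list at 659, 652 and 264 TPM. Nfe2l2, the NRF2 factor, was at 157, 155 and 128 TPM. Immediate early genes were uneven. Fos and Egr1 were low, at 3.81, 3.095 and 1.16 TPM and 0.968, 0.955 and 1.36 TPM. Junb, Jun and Atf3 were moderate, at 92.03, 101 and 33.9 TPM, 58.0, 55.4 and 44.5 TPM and 32.7, 36.0 and 13.7 TPM. Jund was at 133, 130.1 and 76.3 TPM.

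Of 49 nuclear receptors, the ligand-gated transcription factors, 12 were moderate, 8 low, 9 at trace level and 20 without counts. In all, 19 (38.8%) were detected, against 47.2% of all protein-coding genes, of which 35.7% had no counts. Liver X receptor beta (Nr1h2), a sensor of oxysterols, was at 70.7, 105 and 44.001 TPM, and its relative Nr1h3, the alpha form, at 7.33, 5.85 and 3.19 TPM. Rxrb was the main retinoid X receptor at 79.5, 75.7 and 25.4 TPM, with Rxra at 1.25, 1.2001 and 0.797 TPM and Rxrg without counts. The retinoic acid receptors Rara, Rarb and Rarg were at 18.1, 16.6 and 13.3 TPM, 29.4, 25.3 and 15.3 TPM and 18.4, 17.01 and 7.29 TPM, and Rarb shares exons with Top2b on the opposite strand. Ppard was at 18.8, 17.7 and 15.996 TPM, while Pparg and Ppara had no counts. The glucocorticoid receptor Nr3c1 was at 21.2, 13.2 and 11.2 TPM, and the vitamin D receptor Vdr was at 0.0989, 0.01705 and 0.0219 TPM. Among receptors of sex steroids, Pgr and Esr2 had no counts and Esr1 was at 0.114, 0.203 and 0.08895 TPM.

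**Figure D5:**
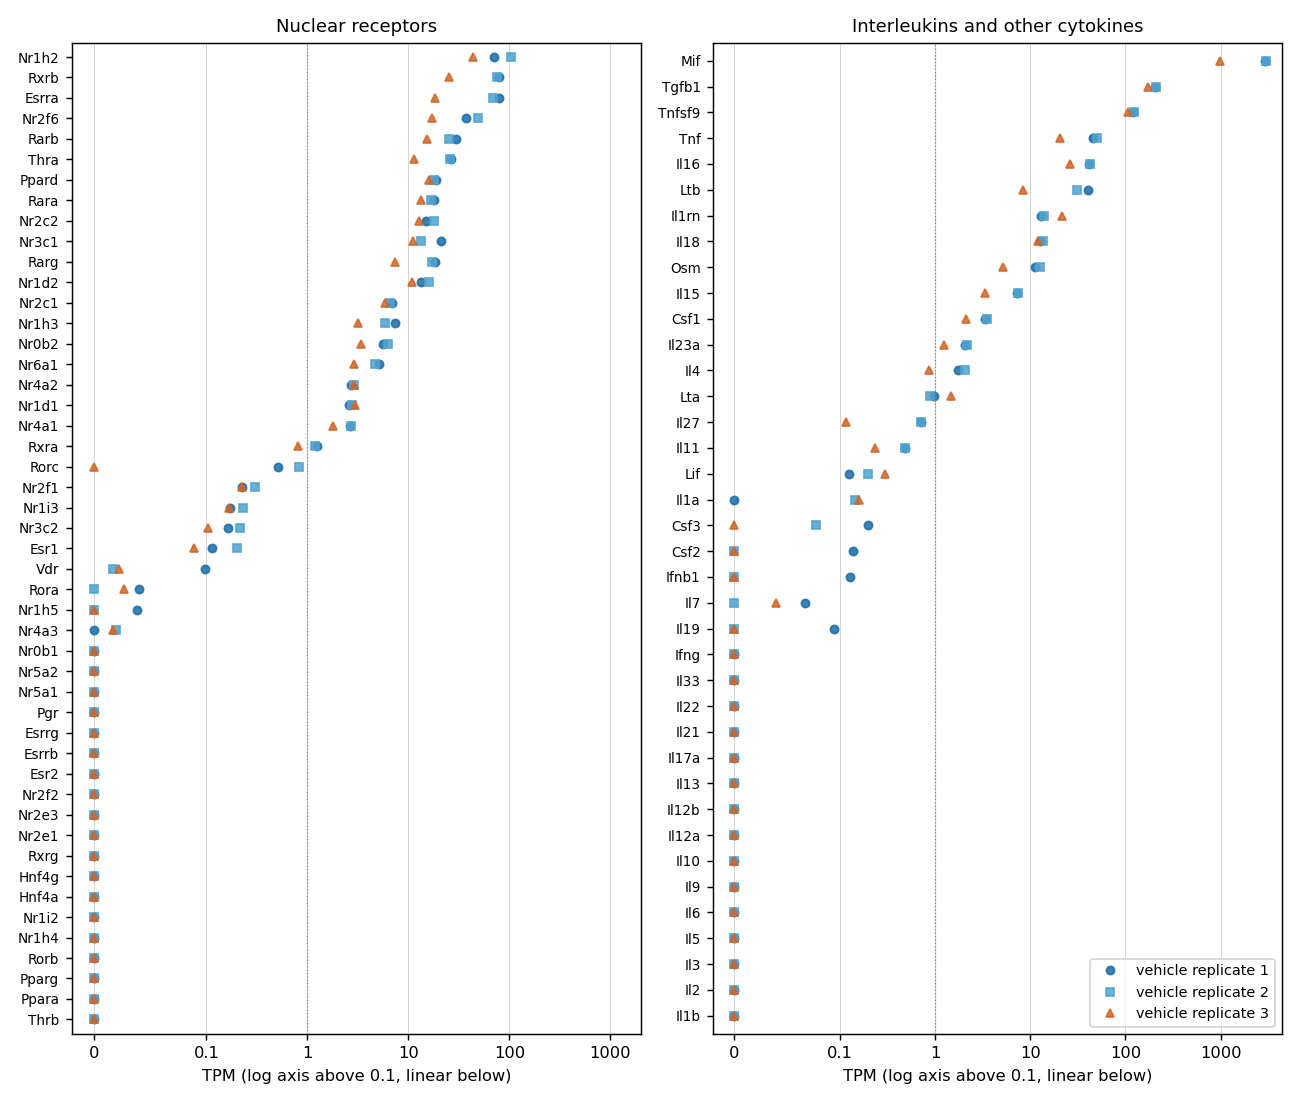
TPM in each vehicle library for 48 of the 49 nuclear receptors (left) and 38 cytokines (right), on an axis that is logarithmic above 0.1 and linear below, with 1 TPM dotted. Nr1h2 and Rxrb lead the receptors, 19 of those plotted lie at 0, and among the cytokines Mif is highest while 15 lie at 0.

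Of 38 secreted cytokines, 8 were at 10 TPM or more and 15 had no counts. The 12 detected were 31.6% of the list, against 47.2% of all protein-coding genes, of which 35.7% had no counts. Mif, a cytokine released from stores, was at 2955, 2981 and 995 TPM, Tgfb1 at 203, 209 and 174 TPM and the TNF family ligand Tnfsf9 at 121, 122 and 106 TPM. Tnf was already present at 45.1, 49.9 and 20.6 TPM. The receptor antagonist Il1rn was at 12.9, 13.8 and 21.5 TPM, 1.61-fold higher in replicate 3. Il1b, Il6, Il10, Il12a, Il12b and Il33 had no counts, and Il1a was at 0, 0.144 and 0.159 TPM. Interferon beta, Ifnb1, was at 0.127, 0 and 0 TPM, and Csf1, the ligand of Csf1r, was at 3.32, 3.502 and 2.09 TPM. TATAAA was in 12 of the 30 cytokine windows and 10 of the 24 chemokine windows that matched. The share was 11.9% of all windows and 21.3% of those of genes without counts.

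Of 33 chemokines, 3 were at 10 TPM or more, 6 (18.2%) were detected and 17 had no counts. Ccl3, a ligand of Ccr1, was at 885, 780.3 and 1150.5 TPM, and its neighbour Ccl4 at 188, 187 and 56.1 TPM. Ccl3 was above Ccl4 by 4.71-, 4.18- and 20.5-fold, with replicate 3 apart. Ccl9 was at 62.98, 61.4 and 41.3 TPM. Ccl2 and Cxcl2, inducible attractants of monocytes and neutrophils, were low at 6.22, 6.83 and 2.41 TPM and 6.502, 6.93 and 3.62 TPM. Ccl5 was at 4.01, 2.801 and 0.335 TPM and Cxcl10 at 0.784, 0.187 and 0.181 TPM. Cxcl1, Cxcl3, Cxcl9, Ccl12 and Ccl17 had no counts.

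Inducible enzymes of arginine, itaconate and tryptophan metabolism were low or absent. Inducible nitric oxide synthase, Nos2, was at 9.49, 7.23 and 4.88 TPM, and Acod1, which makes itaconate, at 8.03, 8.02 and 4.43 TPM. Arg1 was at 0.197, 0.15000 and 0.1104 TPM and Arg2 at 0.719, 1.03 and 0.621 TPM. Ido1, the tryptophan-degrading enzyme, had no counts. Polyamine synthesis was well supplied, with ornithine decarboxylase Odc1 at 189, 191 and 127 TPM and spermidine synthase Srm at 226, 229 and 115 TPM. Gch1, which makes the cofactor of nitric oxide synthase, was at 50.7, 52.5 and 16.7 TPM.

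Eicosanoid genes were led by Alox5ap, Pla2g4a, Hpgds and the PGE synthase gene Ptges3, the 4 high members of the list by mean. Ptges3 was above Alox5 in all 3 libraries. Pla2g4a, which releases arachidonic acid, was at 212, 201 and 129.5 TPM. The 5-lipoxygenase Alox5 and its activating protein Alox5ap were at 97.9, 78.6 and 62.1 TPM and 358, 329 and 176 TPM, with Ltc4s at 71.5, 71.2 and 25.8 TPM and Lta4h at 63.5, 62.7 and 26.1 TPM. Ptgs1 was at 63.7, 57.8 and 41.9 TPM and the inducible Ptgs2 at 5.35, 3.73 and 3.71 TPM, a ratio of 11.9, 15.5 and 11.3. Hpgds, which makes prostaglandin D2, was at 160.3, 160.1 and 121 TPM, and the inducible PGE synthase Ptges at 1.79, 2.15 and 0.769 TPM. The prostacyclin synthase Ptgis was at 0.0511, 0.0525 and 0 TPM, in the same cells in which the prostacyclin receptor was high.

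The phagocyte NADPH oxidase, which makes superoxide, was well represented, with 9 of 13 listed genes detected. Cyba, the small membrane subunit, was at 823, 834 and 313 TPM and Cybb, the catalytic one, at 48.8, 52.8 and 32.9 TPM. The cytosolic subunits Ncf1 and Ncf4 were at 276, 277 and 155 TPM and 205, 212 and 101 TPM, and the GTPase Rac2 at 412, 399.8 and 273 TPM. Nox3, an oxidase known from the inner ear (chr17:3635240-3696261), had 636, 563 and 362 counts and stood at 19.3, 17.5 and 9.71 TPM. Cybb was above Nox3 by 2.53-, 3.02- and 3.39-fold. Nox1 and Nox4 were at trace level and Duox1 and Duox2 had no counts.

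Antioxidant genes were high, with 13 of 19 in that class by mean. Prdx1, a peroxiredoxin, was at 1221, 1076 and 320.3 TPM, Sod1 at 753, 744 and 354 TPM (a mean of 617 TPM, or 118 TPM when recomputed from counts and the longest transcript), Gpx4, which reduces lipid peroxides, at 672, 721 and 197 TPM and thioredoxin Txn1 at 537, 545 and 152 TPM. Heme oxygenase Hmox1 was at 356, 341 and 173 TPM. Catalase, Cat, was at 381, 377 and 467 TPM and was higher in replicate 3. Gpx1 was at 283, 71.1 and 27.4 TPM and Gclm at 100.5, 22.5 and 19.6 TPM, so for both genes replicate 1 was far above replicates 2 and 3. Sod3 had no counts, and Nqo1 was at 2.12, 1.67 and 0.956 TPM.

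Lysosomal genes and iron handling genes had the largest summed levels among the 36 lists. The iron list summed to 27882, 27855 and 18081 TPM, and most of this came from the ferritin chains Fth1 and Ftl1. Fth1 alone was at 20533, 19757 and 15629 TPM, while the median of the 15 iron genes was 33.0 TPM. Of 31 lysosomal genes, 7 were very high and 13 high, and their summed TPM was 27229, 28250 and 12790. Beside Ctsd and Lyz2, the membrane protein Lamp1 was at 2054, 2042 and 1446 TPM, and cathepsin B, Ctsb, at 1951, 2028 and 1121 TPM. Cathepsin Z, Ctsz, was at 1601, 1721 and 741 TPM and prosaposin, Psap, at 1369.6, 1422 and 607 TPM. The legumain gene Lgmn and cathepsins Ctsl and Ctss were at 654, 691 and 492 TPM, 666, 670.1 and 356 TPM and 580.2, 607 and 304 TPM. In contrast, cathepsin C, Ctsc, was at 0.1399, 0.175 and 0.4297 TPM. Of 24 lysosomal windows with a RefSeq entry, 6 (25%) held CACGTG. The share was 6.82% of all windows, 11.7% of those of high genes and 9.68% of those of very high genes. The list of arginine, nitric oxide, itaconate and tryptophan enzymes also had 25%, with 2 of 8 windows. The dendritic cell markers had a higher share, 42.9%, with 3 of 7 windows. Tfe3, Mitf and Tfeb, factors that bind that motif, were at 73.02, 74.3 and 40.1 TPM, 15.7, 16.4 and 14.6 TPM and 13.4, 13.8 and 5.54 TPM. Whether they act on lysosomal genes in these cells was not tested.

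The list of secreted proteases and inhibitors also holds membrane-bound sheddases, and these were its highest members. Adam8 was at 382, 383 and 179 TPM, Adam10 at 125, 111 and 91.4 TPM and Adam17, which sheds TNF, at 85.9, 86.9 and 59.8 TPM. Matrix metalloproteinases were low or absent, with Mmp9 at 1.67, 2.11 and 1.38 TPM, Mmp12 at 0.0483, 0.0247 and 0 TPM, and Mmp3, Mmp8 and Mmp14 without counts. Urokinase, Plau, was at 46.99, 45.1 and 20.7 TPM. RAW 264.7 cells can form osteoclasts, and of 14 osteoclast genes 9 (64.3%) were detected, against 47.2% of all protein-coding genes. Carbonic anhydrase 2, Car2 (chr3:14886273-14900770), was at 1273, 1197 and 684 TPM. Clcn7, a lysosomal chloride transporter, was at 105, 111 and 34.5 TPM, the fusion gene Dcstamp at 22.7, 20.9 and 7.24 TPM and cathepsin K, Ctsk, at 13.9, 15.7 and 4.62 TPM. Acp5, which encodes the tartrate-resistant phosphatase of osteoclasts, was at 2.15, 2.41 and 0.664 TPM, and Calcr and Ocstamp had no counts.

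Glycolysis was expressed along its whole length, with 22 of 28 genes detected. Below Pkm, aldolase Aldoa was at 2142, 2076 and 863 TPM, lactate dehydrogenase Ldha at 1734, 1667 and 543 TPM and Pgk1 at 1453, 1444 and 461 TPM. Gapdh was at 984, 1745 and 505 TPM, so replicate 2 was the highest. Of the alternative isoforms, Pklr, Ldhb and Ldhc had no counts. The glucose transporter Slc2a1 was at 236, 233 and 103 TPM and the lactate exporter Slc16a3 at 252, 242 and 61.1 TPM. All 25 genes of the list for the tricarboxylic acid cycle and enzymes linked to it were detected. Mdh2 was the highest at 568, 586 and 283 TPM, and Pcx, a linked enzyme, the lowest at 32.2, 29.6 and 11.1 TPM. The medians of the lists were close, at 116 TPM for glycolysis and 118 TPM for the cycle with its linked enzymes.

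Lipid genes were detected in 18 of 22 cases (81.8%), against 47.2% of all protein-coding genes. The fatty acid carrier Fabp5 was at 408, 432 and 105 TPM, the desaturase Scd2 at 259.8, 274 and 147 TPM and the droplet protein Plin2 at 252, 253 and 118 TPM. Scd2 was above Scd1 by 12.05-, 12.6- and 9.45-fold. The cholesterol exporter Abcg1 was at 111, 106 and 52.7 TPM but Abca1 only at 1.27, 1.62 and 0.548 TPM. Apoe, abundant in many tissue macrophages, was at 10.5, 9.68 and 4.65 TPM. In iron handling, the phagosomal metal transporter Slc11a1 was at 168, 165 and 74.6 TPM, transferrin receptor Tfrc at 84.8, 78.5 and 50.5 TPM and the iron exporter Slc40a1 at 19.4, 17.8 and 8.37 TPM.

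Class I antigen presentation genes were abundant and class II genes were not. Beside B2m, H2-D1 was at 864, 911 and 233 TPM and H2-K1 at 127, 124 and 67.1 TPM, members of a family whose reads may be shared. The class II chaperone was present with little of its partners: Cd74, the invariant chain, was at 893, 885 and 547 TPM, while H2-Ab1 was at 1.49, 1.74 and 1.38 TPM and H2-Aa at 0.0954, 0 and 0.0844 TPM. Ciita, the master regulator of class II genes, had no counts. Cd74 was above H2-Ab1 by 598-, 509- and 395-fold. The costimulatory ligands Cd80 and Cd86 were at 15.1, 15.2 and 10.3 TPM and 15.7, 19.5 and 13.8 TPM, and PD-L1, Cd274, at 13.4, 13.1 and 10.2 TPM.

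Division genes were expressed nearly throughout. Of 26, 24 were detected, 7 of them high, and the other 2, Cdkn2a and Cdkn2b, which encode inhibitors of CDK4 and CDK6, had no counts. Pcna, the sliding clamp of replication, was at 481, 468 and 253 TPM, Ccnd1 at 294, 293 and 142 TPM and Cdk4 at 339.6, 379 and 167 TPM. Cdkn1a, encoding p21, was also high at 383, 376 and 207 TPM, with Trp53 at 249, 235 and 139 TPM and Mdm2 at 83.5, 82.5 and 59.5 TPM. Mki67 stood at 87.1, 85.1 and 101 TPM, without the usual lower value in replicate 3. The cellular homologue of the viral oncogene, Abl1, was at 36.5, 24.2 and 15.997 TPM. Whether reads of the viral copy were counted for Abl1 was not tested.

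Over all lists, 456 of 821 genes were detected and 183 had no counts, and without replicate 3 these numbers were 476 and 191. The lists were chosen for macrophage genes, so these shares are a description beside the 47.2% and 35.7% over all protein-coding genes. In 29 list genes replicate 3 was above both other libraries, among 710 of 10271 detected nuclear genes (6.91%). Tlr4, Irf2, Ly96, Il1rn, Irak3, Runx1 and Mef2a led them. At the other end, Gpx1, Lipa, Ltb, Ccnd3 and Esrra were between 0.155 and 0.247 of the mean of replicates 1 and 2. Lipa, the lysosomal acid lipase, was at 342, 338 and 75.5 TPM, and Ltb, encoding lymphotoxin beta, at 40.03, 31.2 and 8.28 TPM. Of the 821 genes, 105 share at least 50 exon bases with another annotated gene, 95 of them on the opposite strand, and their levels are less certain for that reason.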

How the data were processed

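RNA of RAW 264.7 cells was enriched for polyadenylated transcripts, and the 3 vehicle libraries are described as 1 group, without a comparison. Per the submitters' processing notes, the tools were Trimmomatic 0.36, HISAT2 2.0 and StringTie 1.3.3b with the mm10 build; no source used here gives their roles and settings, the counting rule or strandedness. The authors deposited raw counts per gene for 51826 genes and TPM values per gene for 51799 of them; 27 genes with calendar-like symbols are missing from the latter. By Ensembl identifier 51633 genes matched GENCODE M21, which gave gene type and position. TPM was used for levels between genes and counts for absence, for which 3 counts were the floor. Intervals cover counting error only, since no molecular identifiers are given and counts of 2 were far more common than counts of 3 (1555 against 553 genes in replicate 1). Depth was 31285425 to 35138718 counts. No 2 libraries held identical values: replicates 1 and 2 had equal counts in 210 of 14387 genes, with a chi-square per gene of 13.8.

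Computation used Python 3.11.15 with pandas 2.3.3, bedtools 2.31.1 for shared exons, biopython 1.88 for alignment, and edgeR 4.0.16 and DESeq2 1.42.0 for scaling factors only. Class assignment and the spread count were tested on simulated data. Members and lists were chosen with earlier results of these data known. The text names, per list, the 4 highest genes, those without counts and those its account is built around, plus the 15 highest nuclear genes, the 8 with the largest coefficient of variation, and paralogs at least 10 TPM and under 1 TPM. Clec6a, H2-L and Emv2 matched no row and are not analysed here. The alternatives tried were other detection levels, other scalings, TPM recomputed from counts, and leaving out each library. Other list members, some of them covered by this rule, are counted in their classes and not named.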

Additional observations from a re-analysis of the deposited data

How the results depend on the processing

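No paired analysis was possible because the values come from 1 group and from no test. The number of detected protein-coding genes was 10284 and stayed between 9793 and 11256 under other levels and scalings, and between 10302 and 10634 without 1 library. Genes of any type without counts numbered 29068, and 29864 to 30315 without 1 library. The mitochondrial share of counts, 9.80% ± 10.5 (SD, n = 3), was 3.73% to 12.9% without 1 library. The spread depended on replicate 3. The highest library was at least 2-fold the lowest for 4214 of 10284 genes (41.0%), and for 76 to 3789 without 1 library, the 76 being without replicate 3. That number was 7373 with no filter on low values, 1162 with edgeR TMM scaling, 1155 with DESeq2 size factors and 1433 with TPM rescaled over nuclear chromosomes. Rescaling over nuclear protein-coding genes, an alternative added after the data were seen, gave 1175. Rescaling raised every named nuclear gene, with a median ratio of 1.196 over nuclear chromosomes and 1.40 over nuclear protein-coding genes, and by construction left the order of genes within a library as it was. Recomputing TPM from counts and the longest transcript moved 30 of the 266 named genes checked by over 1.5-fold. The mean of Sod1 was 0.192 of its value in the deposited TPM, and those of Gas5, Ctsc, Ctsl, Fabp5, H2-Aa, Trem2, Snhg20, Ly86, Gapdh, Zeb2 and Fth1 were between 0.312 (Gas5) and 0.493 (Fth1). The mean of Ppp2r3d was 2.57-fold its deposited value, and Fth1 was then below Spp1. Depth does not separate genes without counts from levels below 0.0854 to 0.0959 CPM.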

Other observations

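Beyond protein-coding genes, 516 of 8612 long noncoding genes were detected in all 3 vehicle libraries and 5880 had no counts. The following transcripts were chosen after their values were seen. Malat1, a nuclear RNA of speckles, was at 291, 303 and 161 TPM, and Gas5, a host of small nucleolar RNAs, at 266, 269 and 140.0 TPM. Neat1, the scaffold of paraspeckles, was at 122, 134 and 54.2 TPM. The snoRNA host genes Snhg20 and Snhg15 were at 81.3, 78.4 and 35.2 TPM and 72.1, 70.97 and 22.5 TPM. Ttc39aos1 was at 32.99, 31.7 and 81.7 TPM, higher in replicate 3 than in the others. Immunoglobulin and T cell receptor V genes were silent, with 217 of 218 and 143 of 144 at 0 counts.

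Unprocessed pseudogenes took 3.34%, 3.22% and 11.9% of TPM. The pseudogene Gm28661 of chromosome 1 had 8524, 7835 and 33563 TPM, and the mitochondrial gene mt-Co2 had 8541, 7851 and 33597 TPM. Gm28437 had 6697, 6658 and 7127 TPM beside 6690.1, 6652 and 7091 TPM for mt-Co3. Whether the same reads were counted for both copies was not tested.

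The 8 protein-coding genes of at least 10 TPM with the largest coefficient of variation were mt-Atp6, mt-Nd6, mt-Nd4l, mt-Nd2, mt-Atp8, Gm45837, Ppp2r3d and Gm20431. Gm45837 shares exons with Pde2a and Arap1, and Gm20431 with Ube2v1 and Tmem189. Ppp2r3d was at 38.3, 2.598 and 1.09 TPM with 1615, 1513 and 1328 counts, so its TPM differed far more between libraries than its counts.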
